A study of Homo sapiens with 4 samples.

Results

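The genes described here are 10 markers used to recognise stem-like cells of the breast and of breast cancer. They are CD44, CD24, PROM1, PROCR, KIT, ABCG2, SOX2, SOX9, BMI1 and KLF4. They were chosen by name, and every probe set annotated to 1 of them alone was taken. By this rule 9 of the 10 genes were measured, with 31 probe sets, out of 19775 genes that had their own probe set. BMI1 (chr10:22321099-22331706), a Polycomb protein of stem cell self-renewal, had 1 probe set, which is annotated to COMMD3-BMI1 too, so that it has no value here. Gene positions are those of RefSeq on GRCh38.p14. The remaining 9 genes had 13 (CD44), 6 (CD24), 4 (SOX2), 2 each (SOX9 and KLF4) and 1 each (PROM1, PROCR, KIT and ABCG2) probe sets.

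The RNA came from SUM159, an established human line of breast cancer that is mesenchymal and negative for hormone receptors. The cells of all groups carried pTRIPZ, an inducible vector, for the microRNA miR-100. Flow sorting divided the cells by the activity of aldehyde dehydrogenase (ALDH), another property used to enrich stem-like breast cancer cells, and both fractions were cultured in suspension with or without DOX. This made 4 groups of 1 Affymetrix array each, namely ALDH-positive DOX, ALDH-positive control, ALDH-negative DOX and ALDH-negative control. The question was which genes miR-100 affects in the stem-like and in the other cells. The labels give doxycycline for 10 h in one field, whereas the descriptions give 13 h and name doxorubicin, a different drug. DOX stands here for the treated arrays. Cells without the construct that received DOX were not analysed here, the mature miR-100 is not measured on these arrays, and the effects of the drug and of the microRNA cannot be told apart.

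Stem-like breast cells are recognised by combinations of surface proteins, by dye or drug efflux and by the transcription factors they use, and no single marker defines them. The pair most used in breast cancer is a high level of CD44, the receptor for hyaluronan in the matrix, with a low level of CD24, a small mucin-like surface glycoprotein. Cells selected by that pair and cells selected by ALDH activity overlap only in part and differ in their epithelial or mesenchymal character. MiR-100 belongs to a family that shares 1 seed, the bases with which a microRNA pairs to its targets. The mature sequences of the family are given from RefSeq (GRCh38.p14), 5′ to 3′, with the seed (bases 2 to 8) in capitals, because the seed is what the induced microRNA has in common with its relatives:
miR-100-5p: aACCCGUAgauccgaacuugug
miR-99a-5p: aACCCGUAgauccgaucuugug
miR-99b-5p: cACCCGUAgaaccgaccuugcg

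Values are log2 levels made by RMA, which puts all arrays on 1 distribution, and a level under 6 is treated as background. Array medians lay between 6.19 and 6.23. A difference between 2 arrays was called when it reached 2-fold, that is 1 on the log2 scale, if 1 or more of the arrays compared had a level of 6. With 1 array per group such a call has no replicate check and no p-value. All 5 mesenchymal genes checked (VIM, FN1, ZEB1, CDH2 and SPARC) had levels between 11.07 and 13.79. Of 5 luminal or epithelial genes, ERBB2 lay between 9.22 and 10.17, while ESR1, PGR, CDH1 and EPCAM were under 6 in all 4 arrays. None of the 4 measured immune markers (of 6 listed) reached 6. The endothelial marker PECAM1 reached 9.62 and 9.77 in the ALDH-negative DOX and control arrays, while CDH5, VWF and TEK were under 6 everywhere. Of 3 erythroid markers HBB had a probe set of its own, at 6.44 and 6.98 in the ALDH-positive DOX and control arrays, against 5.62 and 5.77 in the ALDH-negative ones. Of 3 fibroblast markers PDGFRA and DCN reached 6 in all arrays and LUM in none. The log2 of the summed fibroblast levels was 12.18 and 12.39 in the ALDH-positive DOX and control arrays, against 13.07 and 13.14 in the ALDH-negative ones. The part of other cells in the results below was not tested.

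**Figure D1:**
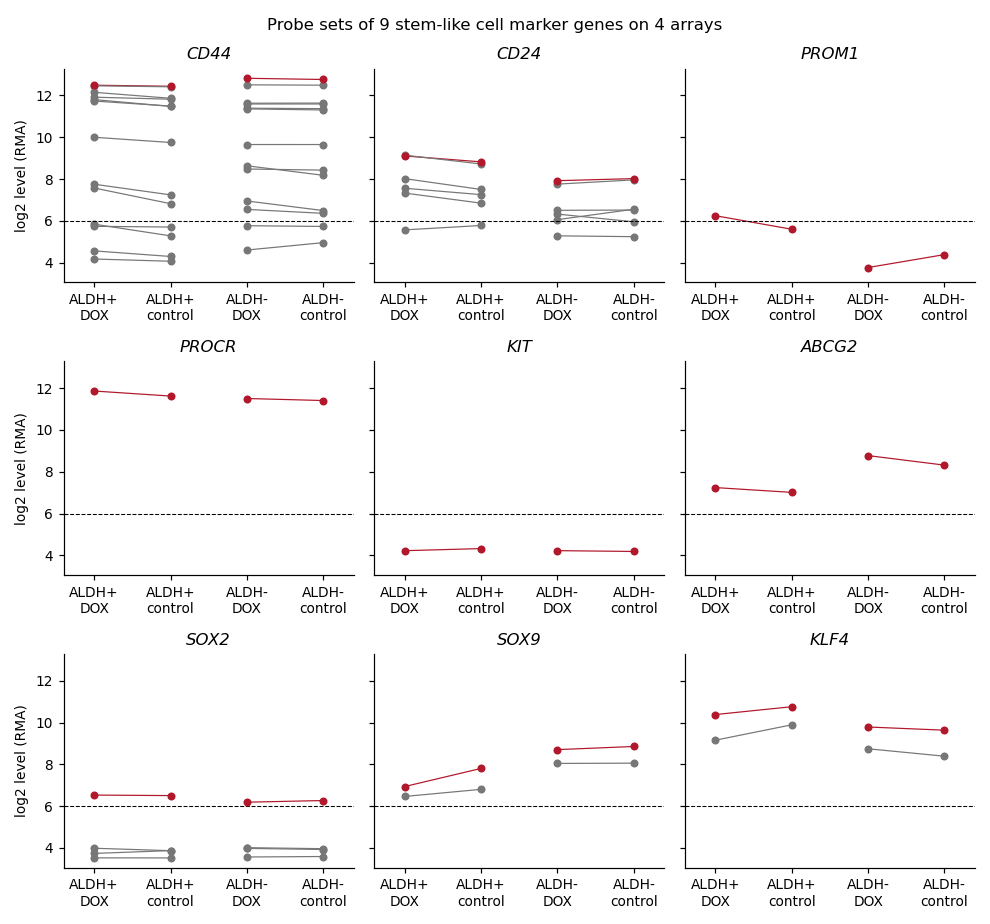
Log2 levels (y axis) of every probe set of the 9 measured genes on the 4 arrays (x axis). Red marks the probe set with the highest mean over the 4 arrays, which stands for the gene, grey the others, lines join the DOX and control array of a fraction, and the dashed line is the level of 6. ABCG2 and SOX9 sit lower in both ALDH-positive arrays, CD24 and KLF4 higher, and KIT is under 6 throughout. PROM1 is also drawn higher in the ALDH-positive arrays, but only ALDH-positive DOX is above 6.

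The ALDH-positive fraction was set against the ALDH-negative one first, once in the control arrays and once in the DOX arrays, and these comparisons share no array. KLF4 and CD24 were higher and ABCG2 and SOX9 lower in ALDH-positive cells, while CD44 and PROCR differed little on the probe sets that stand for them. In the control arrays 3 of 7 measured members were called, 1 higher and 2 lower. Of all 12052 genes compared, 10.5% were called, 6.09% higher and 4.4% lower. In the DOX arrays 4 of 8 were called, 2 higher and 2 lower. Of 12228 genes, 16.7% were called, 11.4% higher and 5.32% lower. With PROM1 the member count in the DOX arrays includes a gene that reached 6 only in the array where it was high. The median difference of the members was 0.21 in the control arrays, against 0.00 for all genes, and 0.35 in the DOX arrays, against 0.08.

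**Figure D2:**
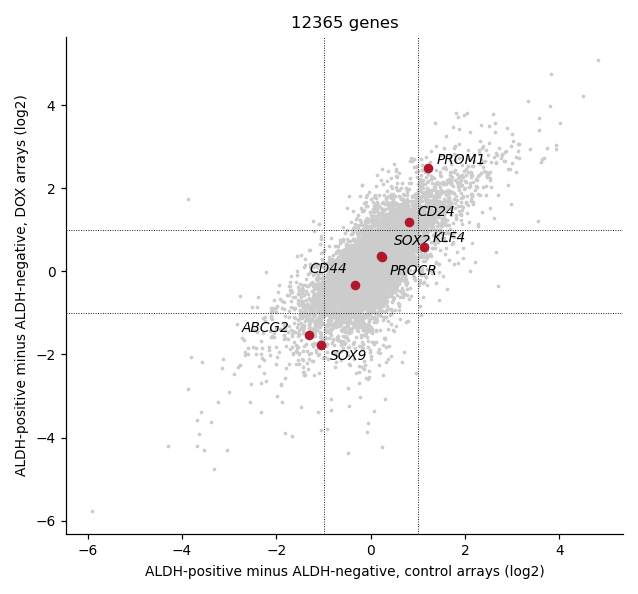
Difference of ALDH-positive minus ALDH-negative cells in the control arrays (x axis) and in the DOX arrays (y axis), both in log2 units, for the 12365 genes with a level of 6 on any array (grey) and the 8 members among them (red). Dotted lines mark 2-fold. ABCG2 and SOX9 lie past 2-fold on the lower side in both comparisons, KLF4 only in the control arrays and CD24 only in the DOX arrays. PROM1 lies past it in both, but both of its control arrays are under a level of 6, so that it was not called there.

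Of the surface proteins, CD24 (chr6:106969831-106976855) was higher in ALDH-positive cells. Its probe set 216379_x_at was at 9.11 in ALDH-positive DOX, 8.83 in ALDH-positive control, 7.93 in ALDH-negative DOX and 8.02 in ALDH-negative control cells. Both ALDH-positive arrays lay above both ALDH-negative ones. The ALDH difference was 1.18 in the DOX arrays, or 2.27-fold, and 0.80 in the control arrays, or 1.74-fold.

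The other CD24 probe sets were on the same side. All 6 had ALDH differences above 0 in both comparisons. Of the 5 that reached a level of 6, 5 were called in the DOX arrays, with differences of 1.18 to 1.51, and 1 in the control arrays, with 208650_s_at at 1.30 and the lowest at 0.29. Probe set 209772_s_at stayed under 6 in all arrays. All CD24 probe sets are of shared kinds (names ending in _s_at or _x_at), which can hybridise to more than 1 transcript, so that no value of CD24 is left without them.

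CD44 (chr11:35139171-35232402), the other surface protein of the pair, split by probe set. Probe set 212063_at, which stands for the gene, was at 12.49 in ALDH-positive DOX, 12.44 in ALDH-positive control, 12.82 in ALDH-negative DOX and 12.76 in ALDH-negative control cells. It was lower in both ALDH-positive arrays, by differences of -0.33 with DOX and -0.32 without, or 1.26-fold and 1.25-fold.

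The probe sets of CD44 were then divided at a mean level of 9, a division made after their values were seen. The 7 probe sets above it had levels between 9.65 and 12.82 and ALDH differences from -0.33 to 0.52 with DOX and from -0.32 to 0.23 without. In each comparison 5 of them lay above 0 and 2 below, and none was called. The 6 probe sets under a mean of 9 had levels between 4.07 and 8.64, and all 6 were lower in ALDH-positive cells in both comparisons. Of these, 234418_x_at and 216056_at were under 6 in all arrays, and no difference can be read from them. The differences of the other 4 ran from -1.11 to -0.73 with DOX and from -1.36 to -0.65 without.

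Among the dimmer CD44 probe sets, 229221_at was at 7.58 in ALDH-positive DOX, 6.83 in ALDH-positive control, 8.64 in ALDH-negative DOX and 8.18 in ALDH-negative control cells. It passed 2-fold in both comparisons, at -1.06 with DOX and -1.36 without. Probe set 1565868_at did so too, at -1.11 with DOX and -1.21 without, though it was under 6 in both ALDH-positive arrays. Probe set 217523_at passed only without DOX, at -1.18, against -0.73 with DOX. The direction of CD44 thus differed between its probe sets, and the files do not say which part of the gene each one reads.

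**Figure D3:**
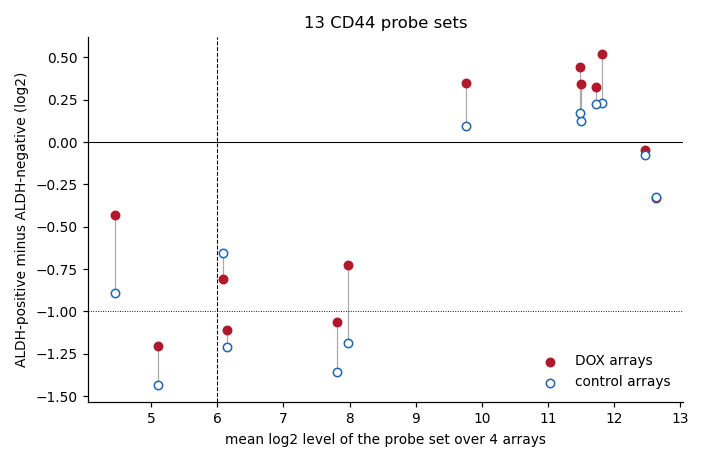
ALDH-positive minus ALDH-negative difference (y axis, log2) of the 13 CD44 probe sets against their mean log2 level over the 4 arrays (x axis), in the DOX arrays (red) and the control arrays (open blue). The dashed line is the level of 6 and the dotted line 2-fold lower. The 6 dimmer probe sets all lie below 0, of which the 2 left of the dashed line are background, and the 7 brighter ones between -0.33 and 0.52.

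PROM1 (chr4:15968228-16084023) encodes prominin-1 (CD133), a membrane glycoprotein of cell protrusions and a marker of several kinds of stem cell. Its 1 probe set was at 6.25 in ALDH-positive DOX, 5.60 in ALDH-positive control, 3.77 in ALDH-negative DOX and 4.39 in ALDH-negative control cells. The ALDH-positive arrays were the higher ones, but only ALDH-positive DOX passed a level of 6. The ALDH difference was 2.48 with DOX and 1.21 without, and 0.25 and 0.00 when levels under 6 were set to 6, so that its size is not determined by these arrays. The related gene PROM2 had differences of 0.39 with DOX and 0.47 without.

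PROCR (chr20:35171096-35216259) encodes the endothelial protein C receptor, a surface protein that marks multipotent cells in the mouse mammary gland. It was at 11.86 in ALDH-positive DOX, 11.62 in ALDH-positive control, 11.50 in ALDH-negative DOX and 11.40 in ALDH-negative control cells. Both ALDH-positive arrays were higher, by 0.36 with DOX and 0.21 without, which is far from 2-fold.

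KIT (chr4:54657957-54740715) encodes the receptor of stem cell factor, found on luminal progenitors of the breast. Its 1 probe set lay between 4.19 and 4.33 in the 4 arrays, which is background, and no difference can be read from it.

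The efflux pump ABCG2 (chr4:88090264-88231626), an ATP-driven transporter that expels dyes and drugs and gives stem-like cells their side population, was lower in ALDH-positive cells. It was at 7.24 in ALDH-positive DOX, 7.01 in ALDH-positive control, 8.77 in ALDH-negative DOX and 8.32 in ALDH-negative control cells. The ALDH-positive arrays were both below the ALDH-negative ones, by differences of -1.53 with DOX and -1.30 without, or 2.89-fold and 2.47-fold. ABCG1, a cholesterol exporter and the only other of 4 ABCG genes at a level of 6, went the other way, at 1.69 with DOX and 2.12 without, and its 4 probe sets at a level of 6 all lay on this side.

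Among the transcription factors SOX9 (chr17:72121020-72126416), which marks luminal progenitors and is used in mammary stem cell states, was lower in ALDH-positive cells. Probe set 202936_s_at was at 6.94 in ALDH-positive DOX, 7.80 in ALDH-positive control, 8.70 in ALDH-negative DOX and 8.85 in ALDH-negative control cells. Probe set 202935_s_at was at 6.46 and 6.80 in the ALDH-positive DOX and control arrays, against 8.04 and 8.06 in the ALDH-negative ones. Both were called in both comparisons, at -1.77 and -1.58 with DOX and at -1.05 and -1.25 without.

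KLF4 (chr9:107484852-107489769), a zinc finger factor of differentiation and reprogramming, was higher in ALDH-positive cells. Probe set 221841_s_at was at 10.38 in ALDH-positive DOX, 10.76 in ALDH-positive control, 9.78 in ALDH-negative DOX and 9.63 in ALDH-negative control cells. Probe set 220266_s_at was at 9.15 and 9.89 in the ALDH-positive DOX and control arrays, against 8.74 and 8.39 in the ALDH-negative ones. All ALDH-positive values lay above the ALDH-negative ones on either probe set. The differences were 0.60 and 0.41 with DOX, neither called, and 1.12 and 1.5 without DOX, both called.

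SOX2 (chr3:181711925-181714436), a pluripotency factor, had 3 probe sets at background, between 3.52 and 4.01, and 1 just above it. That probe set, 213721_at, was at 6.53 in ALDH-positive DOX, 6.51 in ALDH-positive control, 6.19 in ALDH-negative DOX and 6.27 in ALDH-negative control cells. It differed by 0.34 with DOX and 0.24 without, and its 4 values span 0.34 log2 units.

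At the level of probe sets, 9 of 23 were called in the control arrays, 3 higher and 6 lower, where 11% of all probe sets were called. In the DOX arrays 11 of 24 were called, 6 higher and 5 lower, where 18.9% were called. Probe sets of 1 gene are not independent of each other, and 5 of the 6 higher ones in the DOX arrays belong to CD24.

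DOX treatment within a fraction moved no member past 2-fold. In ALDH-positive cells 0 of 8 measured members were called, where 5.78% of 12151 genes and 9.56% of probe sets were. In ALDH-negative cells 0 of 7 were called, where 0.322% of 11819 genes and 0.365% of probe sets were. None of the members' probe sets was called in either fraction. In ALDH-positive cells, probe sets of 1 gene could differ widely from each other with DOX. Those of KLF7 at a level of 6 ran from -2.27 to 0.09 and those of VCAN from -1.04 to 1.01. In ALDH-negative cells they ran from -0.07 to 0.34 and from -0.37 to 0.10. For THBD the spread in ALDH-positive cells was narrow, from 0.13 to 0.34. The reason was not tested, and a DOX difference there can depend on the probe set read. The median of the members was 0.14 in the ALDH-positive pair, against 0.12 for all genes, and 0.06 in the ALDH-negative pair, against 0.00.

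On the probe sets that stand for the genes, the widest DOX differences in ALDH-positive cells were those of SOX9, PROM1 and KLF4. SOX9 was lower with DOX on both probe sets, by -0.87 and -0.34, and differed by -0.15 and -0.01 in ALDH-negative cells. KLF4 was lower with DOX on both probe sets in ALDH-positive cells, at -0.38 and -0.74, but higher in ALDH-negative cells, at 0.15 and 0.35. PROM1 was higher with DOX in ALDH-positive cells, at 0.65, and lower in ALDH-negative cells, at -0.62, where both of its values were under 6.

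ABCG2 was higher with DOX in both fractions, by 0.23 (ALDH-positive) and 0.46 (ALDH-negative). CD24 probe sets at a level of 6 differed by 0.28 to 0.52 in ALDH-positive cells and by -0.50 to 0.37 in ALDH-negative cells. The 13 CD44 probe sets all lay above 0 with DOX in ALDH-positive cells, from 0.03 to 0.75. Their median was 0.25, against 0.06 for all probe sets at a level of 6 in this pair. Of the 13, 1565868_at, 234411_x_at, 234418_x_at and 216056_at were under 6 in both ALDH-positive arrays, and no DOX difference can be read from them there. When arrays were centred on the median of genes at a level of 6, a shift set after seeing the data, CD44 on 212063_at was at -0.08, against 0.05 without it. The direction of this probe set with DOX in ALDH-positive cells thus depends on the scaling. Other CD44 probe sets had wider differences without that shift, such as 217523_at at 0.51 and 229221_at at 0.75, and were not read under it. PROCR differed by 0.24 and 0.10 and SOX2 by 0.03 and -0.08 in ALDH-positive and ALDH-negative cells.

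The DOX difference of the ALDH-positive pair was set against that of the ALDH-negative pair. Of 8 members 1 was called, PROM1 at 1.27, where 6.19% of 12365 genes were called, and that value was 0.25 with levels under 6 set to 6. Among probe sets, 220266_s_at of KLF4 passed as well, at -1.09, where 10.2% of all probe sets passed, while the other KLF4 probe set was at -0.53. With 1 array in each group these differences between fractions could not be tested.

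The 4 arrays were then fitted together with limma, with a term for ALDH and a term for DOX, which gave a mean ALDH difference with an error. P-values from this additive model reflect only how far the arrays depart from additivity, which may be technical, and each gene has 1 residual degree of freedom of its own. At a limma adjusted p under 0.05, 6 of the 8 members at a level of 6 passed, 3 higher and 3 lower in ALDH-positive cells, where 23.1% of 12365 genes passed, 13.5% higher and 9.58% lower. PROM1 rose by 1.85 ± 0.33 (SE, limma adjusted p = 0.0020) but at 0.13 did not pass with levels under 6 set to 6 (limma adjusted p = 0.63). CD24 rose by 0.99 ± 0.27 (SE, limma adjusted p = 0.020), and KLF4 rose by 0.86 ± 0.24 (SE, limma adjusted p = 0.021). ABCG2 fell, at -1.42 ± 0.28 (SE, limma adjusted p = 0.0033), and so did SOX9, at -1.41 ± 0.29 (SE, limma adjusted p = 0.0045). Each of these had the same sign in both pairs of arrays, which a pass in this model largely requires, so that it adds no support. PROM1 entered the fit only through ALDH-positive DOX cells. Both of its control arrays were under 6, so that no direction can be read from that pair.

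CD44 passed as lower on 212063_at, at -0.33 ± 0.10 (SE, limma adjusted p = 0.035). It did not pass with the mean of its probe sets, at -0.39 (limma adjusted p = 0.22), and its brighter probe sets were not on 1 side. PROCR was at 0.29 ± 0.15 (SE, limma adjusted p = 0.21) and SOX2 at 0.29 ± 0.28 (SE, limma adjusted p = 0.50), and neither passed.

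The same model was fitted to all 30732 probe sets at a level of 6, an alternative added after seeing the data. Of the members' 24 probe sets 4 rose and 5 fell in ALDH-positive cells, where 11.7% of all probe sets passed, 6.44% higher and 5.27% lower. Those that rose were 3 of the 5 CD24 probe sets and the 1 of PROM1, and those that fell were the 1 of ABCG2, both of SOX9 and 2 dimmer ones of CD44. Neither KLF4 probe set passed in this fit, with limma adjusted p-values of 0.063 and 0.095.

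For DOX the model passed 0 of 8 members, where 0.00809% of genes passed. At an unadjusted p under 0.05 it passed 0 members and 5.27% of genes. The member furthest from 0 was SOX9, at -0.51 ± 0.29 (SE, limma adjusted p = 0.92), followed by ABCG2 at 0.34 ± 0.28 (SE, limma adjusted p = 0.92). The model counts a response that differs between fractions as error.

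**Figure D4:**
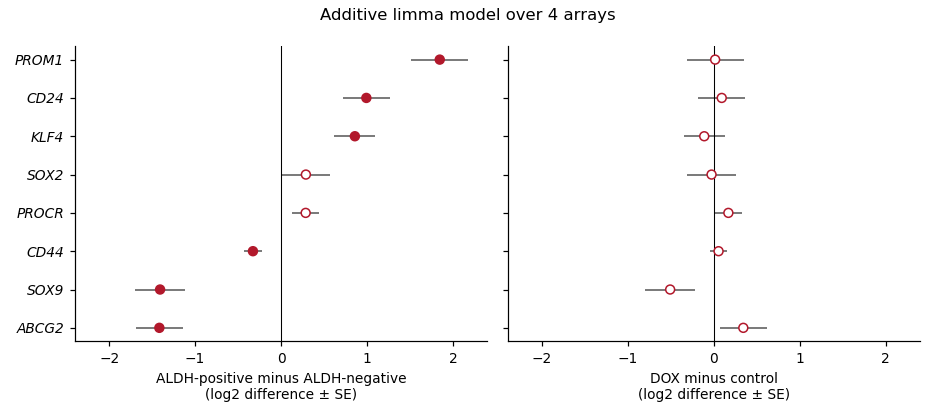
Mean difference of ALDH-positive minus ALDH-negative cells (left) and of DOX minus control (right) from the additive model over 4 arrays, in log2 units with bars of 1 SE, for the 8 members at a level of 6. Filled points passed a limma adjusted p of 0.05. Members lie on both sides of 0 for ALDH, and none is filled for DOX.

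The annotated starts of CD44 and KLF4 are shown because these genes have a single start window in the RefSeq table and represent a bright member with little ALDH difference and one that was higher in ALDH-positive cells. The 250 bases before each start (GRCh38.p14) are printed 5′ to 3′ in the gene's direction, CD44 from chr11:35138921-35139170 (plus strand) and KLF4 from chr9:107489770-107490019 (minus strand). Capitals mark CACCC, the core bound by Krüppel-like factors, on either strand, and the SOX core ACAAT was searched in the same way:
CD44: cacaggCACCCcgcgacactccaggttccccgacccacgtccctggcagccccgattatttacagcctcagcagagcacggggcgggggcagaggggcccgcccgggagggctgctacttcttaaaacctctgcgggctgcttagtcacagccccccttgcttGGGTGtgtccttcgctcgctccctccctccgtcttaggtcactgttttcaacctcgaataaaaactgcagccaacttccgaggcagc
KLF4: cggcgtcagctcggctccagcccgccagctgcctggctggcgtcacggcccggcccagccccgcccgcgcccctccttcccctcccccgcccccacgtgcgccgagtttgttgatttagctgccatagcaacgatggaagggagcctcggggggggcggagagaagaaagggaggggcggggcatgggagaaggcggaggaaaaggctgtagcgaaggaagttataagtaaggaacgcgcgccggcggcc

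The CD44 window holds 2 matches to CACCC and the KLF4 window 0, and neither holds ACAAT. Of 35116 windows of this length before RefSeq starts, 54.7% hold CACCC and 24.6% ACAAT. The table holds 19 windows for the listed genes, BMI1 included and SOX9 not, of which 12 hold CACCC and 1, of CD24, holds ACAAT. A match is a description of the letters only.

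The families and partners of the members were read from lists of named genes. Among Krüppel-like factors, 13 of the 16 relatives of KLF4 were at a level of 6, and 4 of these 13 were called higher and none lower in ALDH-positive control cells, with 3 higher and none lower with DOX. Of all genes 6.09% were called higher without DOX and 11.4% with DOX. The additive model passed 4 as higher and none as lower, where 13.5% of all genes passed as higher. They were KLF11 at 1.92 with DOX and 1.53 without, KLF8 at 1.33 and 1.26, KLF7 at 1.27 and 1.11, and KLF9 at 0.79 and 1.52. KLF9 had 3 of its 4 probe sets at a level of 6 on that side in each comparison, and KLF7 all 5 without DOX and 3 of 5 with DOX. The list had a median of 0.37 with DOX and 0.48 without, against 0.08 and 0.00 for all genes. Of 18 other SOX genes, 5 reached a level of 6, and none of these was called or passed the model on the probe set that stands for it. The second SOX12 probe set was at 1.37 with DOX and 0.80 without. For SOX7 the second probe set was at -1.16 for the difference between the DOX differences.

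For CD44, of 20 measured genes for hyaluronan and other partners, 17 reached a level of 6, and the model passed 1 as higher and 3 as lower, a share close to the 23.1% of all genes. The proteoglycan VCAN, which binds hyaluronan, was lower by -1.90 with DOX and -2.15 without, on all 5 of its probe sets. CEMIP2 and CEMIP, which take part in breaking hyaluronan down, were at -1.65 and -1.27 with DOX and -1.49 and -1.18 without, CEMIP with a level of 6 only in ALDH-negative DOX cells. ESRP1, a splicing factor that favours the longer epithelial isoforms of CD44, was higher, at 6.87 and 6.99 in the ALDH-positive DOX and control arrays, against 4.48 and 3.91, which are background, in the ALDH-negative ones. TNFAIP6, which modifies hyaluronan, was at -0.25 with DOX and 1.12 without, and its DOX difference was -1.48 in ALDH-positive cells, against -0.11 in ALDH-negative cells. HYAL3, a hyaluronidase, was at -0.25 with DOX and -1.24 without.

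KIT itself was at background, but its ligand was not. KITLG, stem cell factor, was at 7.84 in ALDH-positive DOX, 6.86 in ALDH-positive control, 9.44 in ALDH-negative DOX and 9.59 in ALDH-negative control cells. It was lower in both ALDH-positive arrays, by -1.60 with DOX and -2.72 without. MITF, a transcription factor downstream of KIT in melanocytes, was higher by 1.64 with DOX and 1.65 without, the kinase FYN by 1.24 and 1.10 and the adaptor GAB2 by 0.72 and 1.74. Of 16 genes of this list at a level of 6 the model passed 4 as higher, these 3 and the adaptor SHC1 (0.35), and KITLG as lower, where 13.5% of all genes passed as higher and 9.58% as lower. The second MITF probe set was at 0.25 with DOX and 1.45 without.

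Of 8 genes at a level of 6 in a list around PROCR and the protein C pathway, 4 were called lower and none higher in each ALDH comparison, on the probe sets that stand for them. Of all genes, 5.32% were called lower with DOX and 4.4% without. The model passed these 4 as lower and PROS1, the cofactor protein S, as higher (0.70). Thrombomodulin, THBD, which works with PROCR to activate protein C, was at -1.98 with DOX and -2.33 without, on all 3 of its probe sets. TFPI2, a protease inhibitor, was at -3.95 with DOX and -1.68 without, tissue factor, F3, at -2.44 and -1.10, and S1PR1, a lysophospholipid receptor, at -1.32 and -1.46. S1PR1 was under 6 in ALDH-positive control cells (5.11), so that the size of its difference without DOX is not determined. TFPI went the other way. All 5 of its probe sets at a level of 6 were higher in ALDH-positive cells, by 0.66 to 1.82 with DOX and 0.27 to 1.27 without. The one that stands for the gene, at 0.66 and 0.27, was not called. TFPI2 and F3 were also lower with DOX within ALDH-positive cells, by -2.37 and -1.35, against -0.09 and -0.01 in ALDH-negative cells. The second TFPI2 probe set was at -0.79 in ALDH-positive cells, short of 2-fold. F2R, the thrombin receptor cut by activated protein C, was higher with DOX in ALDH-positive cells, at 1.08, against -0.03 in ALDH-negative cells. The list also holds genes outside the protein C pathway, such as F3 and TFPI2, and was chosen with earlier results known. Its counts thus do not describe the pathway as a unit.

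BMI1 has no value, but 22 of 25 other Polycomb genes, whose products act with it in silencing chromatin or in related complexes, were measured. Of the 20 at a level of 6, the model passed CBX7 and EZH1 (0.94) as higher and EED (-0.92) as lower, a smaller share than the 23.1% of all genes. EED had a second probe set on the other side, at 0.41 with DOX and 0.11 without. CBX7, a reader subunit, was higher in ALDH-positive cells, at 1.62 with DOX and 1.35 without. PCGF6, a relative of BMI1, was at -1.14 with DOX and -0.29 without, and YAF2, another subunit, was lower with DOX in ALDH-positive cells, at -1.05, against -0.20 in ALDH-negative cells. The second YAF2 probe set was at -0.54 in ALDH-positive cells, short of 2-fold.

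Of 27 other genes used as stem-like cell markers, 15 reached a level of 6, and the model passed 2 as higher and 3 as lower, where 23.1% of all genes passed. Those passed as higher, NANOG and DCLK1, were under 6 everywhere except in ALDH-positive DOX cells, so that they entered the test only through the array where they were high. Those passed as lower were DNER, BCL11B (-0.96) and MSI2 (-0.49), though BCL11B had 1 of 2 and MSI2 8 of 10 probe sets on that side without DOX. DNER, a surface protein with EGF repeats, was at 10.99 in ALDH-positive DOX, 11.95 in ALDH-positive control, 12.68 in ALDH-negative DOX and 12.59 in ALDH-negative control cells. NANOG, a pluripotency factor, was at 7.12 in ALDH-positive DOX cells and under 6 in ALDH-positive control (5.58), ALDH-negative DOX (5.10) and ALDH-negative control cells (5.13). DCLK1, a kinase of gut and pancreas tuft cells, was at 6.11 in ALDH-positive DOX and under 6 in the others. ITGB3, an integrin subunit, was at -1.51 with DOX and -0.12 without between the fractions. MYC was lower with DOX in ALDH-positive cells, at -1.13 (12.41, against 13.54 in the control), and differed by -0.12 in ALDH-negative cells. TSPAN8, a tetraspanin, was higher with DOX in ALDH-positive cells, at 6.25, against 5.07 in the control, a difference of 1.19. It was under 6 in every other array, so that the size of this difference is not determined.

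**Figure D5:**
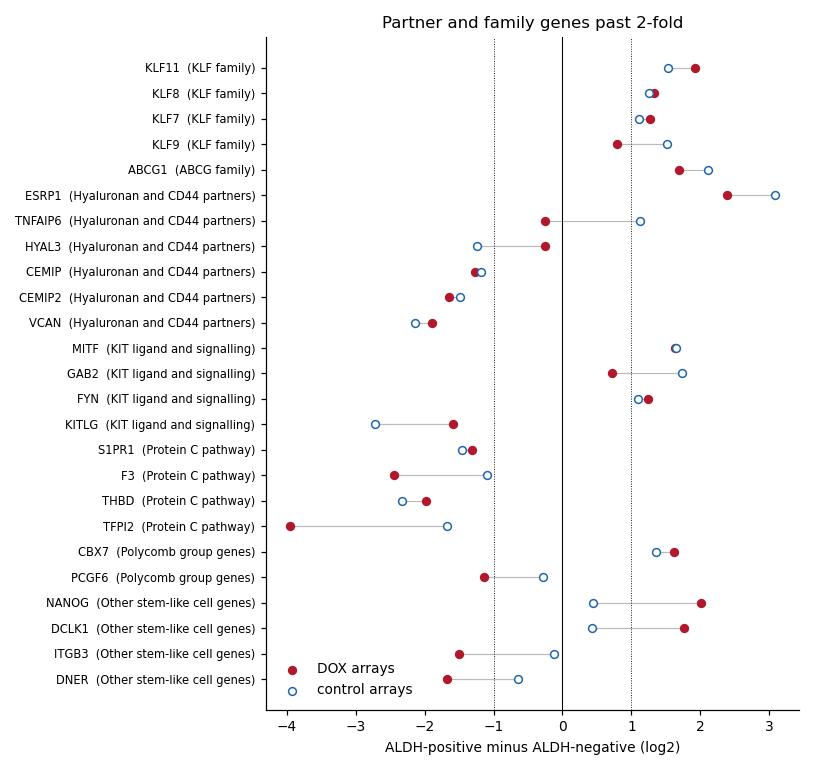
ALDH-positive minus ALDH-negative difference (x axis, log2) in the DOX arrays (red) and the control arrays (open blue) for 25 family and partner genes called in at least 1 of these comparisons, by list. Dotted lines mark 2-fold. The 4 Krüppel-like factors lie above 0 and the 4 genes of the protein C pathway list below 0 in both comparisons.

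For the 5 members at a level of 6 that spanned at least 1 log2 unit, the nearest profiles over the 4 arrays were sought among 12364 genes, by the root mean square distance of centred log2 values. With 4 arrays many genes have a similar profile by arithmetic alone. KDM6B and ADGRG2 were nearest to CD24, at distances of 0.025 and 0.027, with 154 genes within 0.1. SOS2 and MAP2 were nearest to KLF4, at 0.025 and 0.026, with 48 genes within 0.1. NR4A3 (0.057) and SLITRK6 (0.080) were nearest to ABCG2, ARHGAP11A (0.069) and SLC12A2 (0.071) to SOX9, and CFAP53 (0.079) and ITPR1-DT (0.097) to PROM1. NR4A3 and SLITRK6 were under 6 in both ALDH-positive arrays, and ITPR1-DT and PROM1 in every array but ALDH-positive DOX. The distances of NR4A3, SLITRK6, ITPR1-DT and CFAP53 thus rest in part on background values.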

How the data were processed

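RNA of 4 groups, 1 array each, was measured on Affymetrix arrays. The authors deposited log2 values per probe set, made with RMA per the submitters' processing notes, whose version is not stated in them. No further scaling was applied. Of 54675 probe sets, 62 controls were left out. The platform annotation, with symbols updated by gene identifier, gives 41097 probe sets 1 gene, 1801 several and 11777 none. The probe set with the highest mean stood for a gene, and every probe set of a member was also read. The additive model was fitted in R 4.3.3 by limma 3.58.1, with a mean-variance trend in eBayes and with terms for ALDH fraction and DOX, adjusted by Benjamini and Hochberg over 12365 genes. P-values were two-sided, and the number of arrays limits the precision. The model was first run on simulated data in which all genes shared a common spread and none responded to DOX. That run does not show how well the model performs on these data. Python 3.11.15 and pandas 2.3.3 were used. Members, lists and tests were chosen with earlier results of these data known. Genes named beside the members were those called in at least 1 comparison, at most 4 per list and comparison. PROM2, SHC1, PROS1, TFPI, SOX7, SOX12, EZH1, EED, BCL11B and MSI2 were named after their values were seen.

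Alternatives were centring, cyclic loess, other level filters, a floor of 6, averaging over each gene's probe sets, no shared probe sets, a 1.5-fold rule and other variance models.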

Additional observations from a re-analysis of the deposited data

Results flagged for a closer look

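PROM1 (204304_s_at) moved in opposite directions with DOX in the fractions, with 0.65 (ALDH-positive) and -0.62 (ALDH-negative), which lie 1.27 apart. Only the ALDH-positive DOX array reached a level of 6, and with levels under 6 set to 6 the difference was 0.25. KLF4 did so on 220266_s_at, with -0.74 (ALDH-positive) and 0.35 (ALDH-negative), a difference of -1.09 with all 4 values above 8. Its other probe set had the same directions and a difference of -0.53. Neither difference was tested, since each group held 1 array.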

How the results depend on the processing

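No difference of a member that was called changed sign under any alternative. This was largely fixed in advance, so that it adds no support. The level filters, the 1.5-fold rule and the variance models leave a difference as it is. A called difference of at least 1 log2 unit also leaves little room for a change of sign by scaling. The 2-fold rule called 3 members between the fractions in the control arrays and 4 in the DOX arrays, and 1 in each without shared probe sets, where CD24, PROM1, KIT, SOX9 and KLF4 have no probe set left. At 1.5-fold, 2 members were called for DOX in ALDH-positive cells (PROM1 and SOX9), against 0, while 1780 of 12151 genes were called higher and 828 lower. For the difference between the DOX differences the 1 call, PROM1, became 0 at a level of 7, with values under 6 set to 6 and without shared probe sets, and 2 calls at 1.5-fold, where 1827 of 12365 genes were called higher and 927 lower. For the ALDH term of the additive model 6 members passed, but 2 with no filter on level (PROM1 and ABCG2) and 2 without shared probe sets (CD44 and ABCG2). In the fit over all probe sets 3 passed on the probe set that stands for the gene (PROM1, ABCG2 and SOX9). ABCG2 passed in every one of these fits. In the fit over all probe sets, 3 other CD24 probe sets and 2 other CD44 probe sets passed as well. CD44 lost its pass in 5 gene-level alternatives, with adjusted p-values from 0.080 to 0.29, and KLF4 without the variance trend (limma adjusted p = 0.063). Over all genes the ALDH term passed 2856 genes, 1672 higher and 1184 lower, and with no filter on level 767 and 410, and without the variance trend 998 and 529.

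Centring on the median of genes at a level of 6, added after seeing the data, changed the split of higher and lower calls over all genes to 264 and 387 for DOX in ALDH-positive cells (422 and 280 otherwise), to 1124 and 843 between the fractions with DOX (1396 and 650 otherwise) and to 295 and 440 for the difference of DOX differences (468 and 297 otherwise). The members called were the same under it. No paired analysis was possible because each group held 1 array. No alternative leaves out a replicate, for the same reason.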
